A study of Mus musculus with 8 samples.

Results

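The genes described are the receptors through which blood cells receive haematopoietic growth factors: Kit, Flt3, Csf1r, Csf2ra, Csf2rb, Csf2rb2, Csf3r, Il3ra and Epor. They were chosen by name, as the probe sets whose only gene symbol in the platform annotation is 1 of these 9, and each was represented by 1 probe set, so that 9 of the 21789 probe sets tested are members. Expression was measured on 8 Affymetrix arrays with total RNA from C57BL/6 mouse cells, 2 arrays in each of 4 groups: empty vector, the leukaemia fusion NUP98-HOXA9 in full length, and its deletion mutants delFG1 and delFG2. The series asks which genes the NUP98 moiety of the fusion regulates, so the main comparisons were full-length fusion with empty vector and delFG1 or delFG2 with full-length fusion. NUP98-HOXA9 joins a stretch of phenylalanine-glycine (FG) repeats of the nuclear pore protein NUP98 to the homeodomain of HOXA9. The labels and series text used here do not give the residues that the deletions remove, the kind of cell, the vector or any growth factor in the culture. Nor do they say whether a group's arrays stem from separate cultures, and the p-values therefore reflect the spread among these arrays alone, which may be technical.

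Growth factor receptors fall into families that work differently. Kit, Flt3 and Csf1r are receptor tyrosine kinases: binding of a ligand pairs the receptor chains, which then phosphorylate each other. Kit binds stem cell factor, Flt3 binds FLT3 ligand and Csf1r binds macrophage colony-stimulating factor (M-CSF) and interleukin 34. The other receptors belong to the cytokine receptor family, have no kinase of their own and signal through bound JAK kinases and STAT factors. Csf3r and Epor, the receptors of granulocyte colony-stimulating factor (G-CSF) and erythropoietin, work as pairs of identical chains. Csf2ra and Il3ra are the ligand-binding alpha chains for granulocyte-macrophage colony-stimulating factor (GM-CSF) and interleukin 3. Csf2rb is the common beta chain of the GM-CSF, interleukin 3 and interleukin 5 receptors, and Csf2rb2 is a second beta chain of the mouse that serves interleukin 3 alone. Kit and Flt3 are known for their part in stem and progenitor cells, Csf1r marks monocytes and macrophages, and Csf3r marks granulocytes and their precursors.

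Levels are given as log2(intensity + 1), the scale of all differences. Median intensity was 80.7 to 83.2 in the 8 arrays, and the lowest intensity of any probe set was 18.3. Since no cell type is labelled, marker genes other than the receptors were summed. The 16 neutrophil markers summed to intensities between 68296.2 and 85161.1 per array, and Elane (8418 to 9873) and Mpo (7603 to 8969), neutrophil granule enzymes, were high in every array. The 11 measured monocyte and macrophage markers summed to between 9539.6 and 15991.9. The 9 mast cell and basophil markers summed to between 11659.6 and 18703.2, and the 5 measured eosinophil markers to between 3970.7 and 11119.6. Of the lymphoid markers, 5 of 7 B cell and 6 of 7 T and NK cell markers lay under 100 in every group. Arrays of the same number deviated together from their group means, so the number (1 or 2) was also fitted as a replicate block, and results of both fits are given where they differ. A gene passed at an adjusted p under 0.05 by limma; intervals are not adjusted for the number of probe sets.

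Promoter sequences are shown for the receptors whose signal was lower in every array with a fusion than in both arrays with the empty vector, described below. These receptors are Csf1r, Csf2ra, Csf2rb, Csf2rb2 and Epor, and sequences are printed for 3 of them, Csf2rb2, Csf2ra and Epor. Each is the 250 bases before the RefSeq start of the gene in build GRCm38.p6, read 5′ to 3′ on the strand of the gene. Capitals mark a match, on either strand, to GAGGAA, the core of the PU box bound by the ETS factor PU.1, or to AGATAA, a site of GATA factors. The windows lie at chr15:78305722-78305971 for Csf2rb2, chr19:61228419-61228668 for Csf2ra and chr9:21963577-21963826 for Epor, all on the minus strand.
Csf2rb2: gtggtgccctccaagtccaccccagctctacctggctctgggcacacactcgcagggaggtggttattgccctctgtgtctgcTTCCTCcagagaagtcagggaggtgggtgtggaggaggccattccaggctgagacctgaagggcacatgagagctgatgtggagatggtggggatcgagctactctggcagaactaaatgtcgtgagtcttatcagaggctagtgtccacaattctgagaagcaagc
Csf2ra: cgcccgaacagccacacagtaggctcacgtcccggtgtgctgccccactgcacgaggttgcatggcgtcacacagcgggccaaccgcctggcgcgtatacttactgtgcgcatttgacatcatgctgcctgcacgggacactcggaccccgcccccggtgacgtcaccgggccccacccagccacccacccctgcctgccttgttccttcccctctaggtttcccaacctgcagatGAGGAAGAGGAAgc
Epor: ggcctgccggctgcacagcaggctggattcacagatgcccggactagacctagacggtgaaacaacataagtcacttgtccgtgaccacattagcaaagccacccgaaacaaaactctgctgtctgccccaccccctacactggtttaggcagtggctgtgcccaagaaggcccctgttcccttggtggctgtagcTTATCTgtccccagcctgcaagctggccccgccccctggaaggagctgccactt
The Csf2rb2 window held 1 PU box match, from base -167 to -162 counted from the start. In the Csf2ra window, 2 matches stood side by side, from -14 to -9 and from -8 to -3. Epor held 1 GATA match, from -54 to -49, and no PU box match. PU box matches also stood in the windows of Csf3r (-86 to -81) and Kit (-223 to -218 from the first of its annotated starts), whose arrays with a fusion were not all lower, and none of the letters occurred in those of Flt3 and Il3ra. Of 32851 promoter windows of the same length, 23.3% held the PU box letters and 9.99% the GATA letters. Neither C/EBP letters (TTNNGNAAT, 10.2% of windows) nor PBX-HOX letters (TGATTNAT, 2.82%) occurred in the windows of the 7 receptors whose promoters were read. The motifs were chosen after the sequences had been seen, and a match describes letters, not binding.

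With the fusion, 5 of the 9 receptors had a lower signal, in all 6 fusion arrays, than either empty vector array: Csf1r, Csf2ra, Csf2rb, Csf2rb2 and Epor. Among all probe sets tested, 5.9% were lower in this way and 7.4% higher, and 0 receptors were higher. Csf1r and Csf2rb2 fell with the full-length fusion and with delFG1 when the replicate block was fitted, and 0 receptors passed without it. Kit, Flt3, Csf3r and Il3ra did not pass in either fit against the empty vector. In RNA from a bulk of cells, fewer cells of a type and less RNA per cell cannot be told apart.

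**Figure D1:**
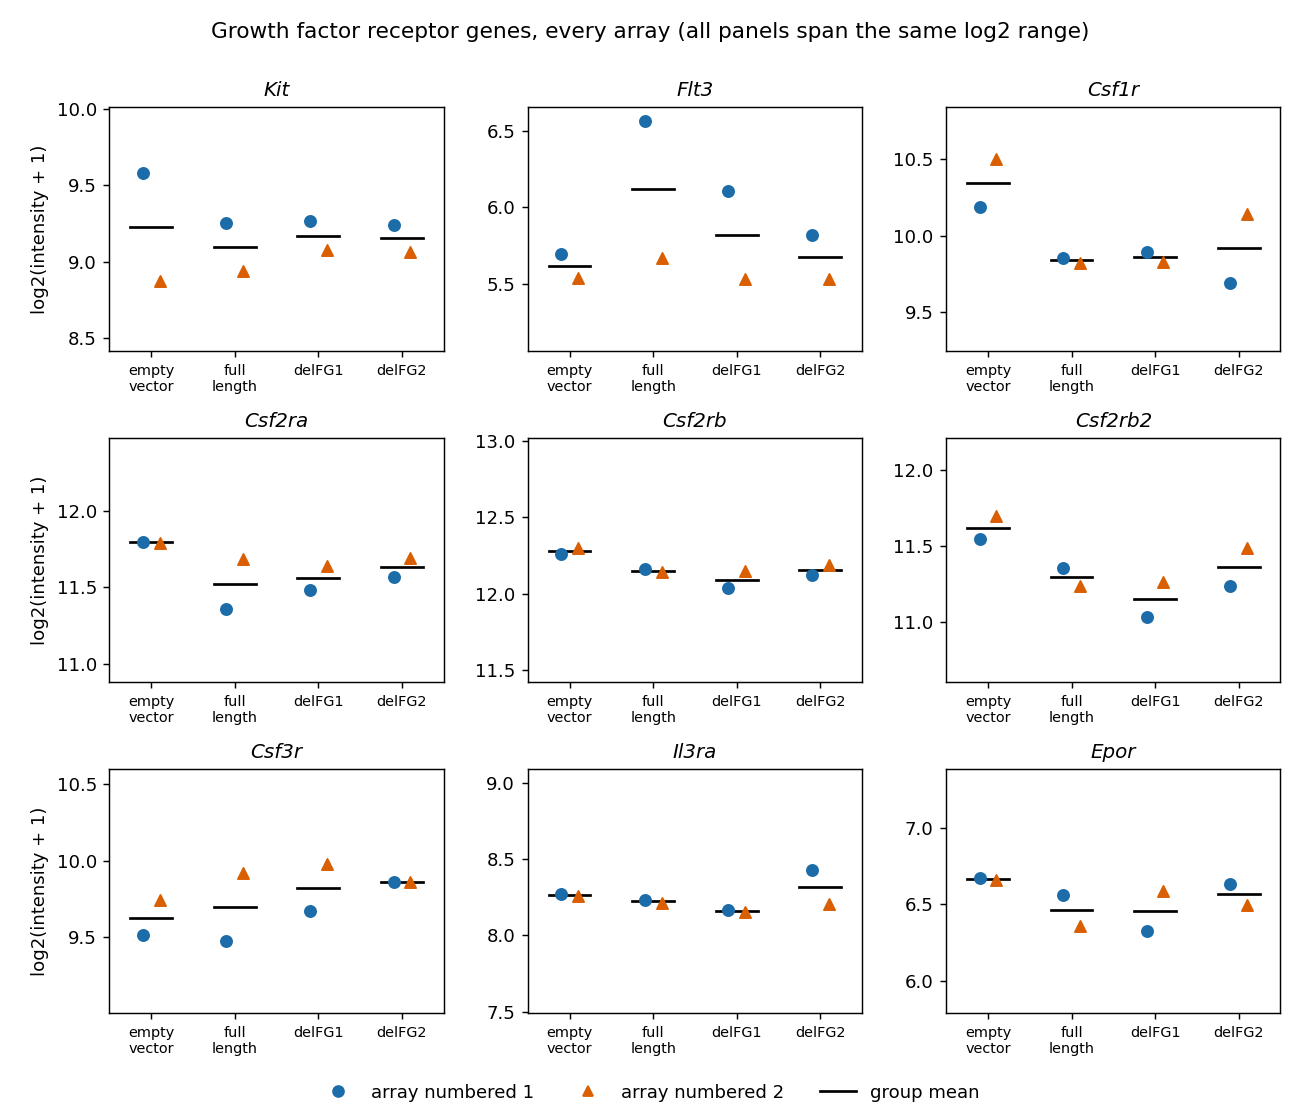
Log2(intensity + 1) of each of the 9 receptor genes in every array, by group; circles are arrays numbered 1, triangles arrays numbered 2, and the black line is the group mean (n = 2). For Csf1r, Csf2ra, Csf2rb, Csf2rb2 and Epor both empty vector arrays lie above all 6 fusion arrays, and for Kit and Flt3 the array numbered 1 lies above the array numbered 2 in every group.

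Csf1r, the M-CSF receptor, read 10.19 and 10.50 with the empty vector, 9.86 and 9.82 with the full-length fusion, 9.89 and 9.83 with delFG1, and 9.69 and 10.14 with delFG2. Both empty vector arrays were the highest of the 8, and the delFG2 arrays stood farthest apart. The group means were 10.35 ± 0.22, 9.84 ± 0.02, 9.86 ± 0.05 and 9.92 ± 0.32 (SD, n = 2). With the full-length fusion Csf1r was lower by a log2 difference of -0.51 (95% interval -0.87 to -0.15), or 1.42-fold, and it passed with the replicate block (adjusted p = 0.0273) and not without it (adjusted p = 0.357). The difference was -0.34 for array 1 and -0.68 for array 2. With delFG1 it was -0.49 (adjusted p = 0.347, and 0.0352 with the replicate block) and with delFG2 -0.43 (adjusted p = 1, and 0.159 with the block). These 3 differences share the empty vector arrays. With the block, leaving out the full-length array numbered 2 gave an adjusted p of 0.305 for the full-length fusion, and without the delFG1 array numbered 2 it was 0.331 for delFG1. The other arrays whose removal ended a call of Csf1r were empty vector 2 (0.0768) and full-length 1 (0.0945) for the full-length fusion, and empty vector 2 (0.0963), full-length 1 (0.0627) and full-length 2 (0.0628) for delFG1.

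The sum of monocyte and macrophage markers other than Csf1r was also lower with each fusion than with the empty vector, within each array number. Their summed intensity was 11970.6 and 15991.9 with the empty vector, 10112.4 and 11818.1 with the full-length fusion, 9539.6 and 11531.5 with delFG1, and 10299.6 and 13257.8 with delFG2. Of the 11 markers measured, 2 rose and 4 fell with the full-length fusion once the block was fitted, where 4.43% of all probe sets fell, and 5 were higher in the arrays numbered 2. Markers of other myeloid cells fell too in that fit: 6 of 16 neutrophil (1 rose), 4 of 9 mast cell and basophil (1 rose), 3 of 5 eosinophil and 4 of 5 megakaryocyte markers (1 rose). Summed intensity in arrays 1 and 2 was 5796.7 and 11119.6 with the empty vector and 4400.1 and 6873.8 with the full-length fusion for eosinophil markers, and 2558.4 and 2473.8 against 1708.0 and 1475.2 for megakaryocyte markers. For neutrophil markers it was 76397.8 and 85161.1 against 68296.2 and 79552.6, and for mast cell and basophil markers 16706.7 and 18320 against 14665.6 and 17673.3. The part of these markers in the differences of Csf1r, Csf2ra, Csf2rb and Csf2rb2 was not tested.

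Csf2rb2, the interleukin 3 beta chain, read 11.55 and 11.70 with the empty vector, 11.36 and 11.24 with the full-length fusion, 11.04 and 11.26 with delFG1, and 11.24 and 11.49 with delFG2. No fusion array reached the lower empty vector array. Group means were 11.62 ± 0.11, 11.30 ± 0.08, 11.15 ± 0.16 and 11.36 ± 0.18 (SD, n = 2), with delFG1 lowest. The difference from the empty vector was -0.47 for delFG1 (95% interval -0.74 to -0.20), or 1.38-fold, with an adjusted p of 0.221 without the block and 0.00669 with it. That call was lost without the delFG1 array numbered 1 (adjusted p = 0.104 with the block) and held without each of the other 7 arrays. For the full-length fusion the difference was -0.32 (95% interval -0.59 to -0.06), with an adjusted p of 0.421, and 0.0443 with the block. The latter call was lost in 6 of 8 fits with an array left out: without full-length 2 (0.392), empty vector 1 (0.0812), empty vector 2 (0.0649), delFG2 1 (0.0635), delFG2 2 (0.0638) and delFG1 2 (0.0501). The difference in the fit with the block was -0.16 without full-length 2 and -0.49 without full-length 1. With delFG2 it was -0.26 (adjusted p = 1, and 0.256 with the block).

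Csf2rb, the common beta chain, spread least of the receptors within groups, with an SD of 0.05 (n = 8 arrays in 4 groups). It read 12.26 and 12.30 with the empty vector, 12.16 and 12.14 with the full-length fusion, 12.03 and 12.15 with delFG1, and 12.12 and 12.19 with delFG2. All fusion arrays lay below the empty vector arrays, by small margins. The differences from the empty vector were -0.13, -0.19 and -0.12 for the full-length fusion, delFG1 and delFG2, and none passed in either fit; the lowest adjusted p with the block was 0.0589, for delFG1. Csf2rb and Csf2rb2 are known as closely related copies and lie on chromosome 15 with 1 annotated gene, the microRNA gene Mir7676-1, between them. Whether either probe set also reads the other copy was not tested.

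Csf2ra, the GM-CSF alpha chain, read 11.80 and 11.79 with the empty vector, 11.36 and 11.69 with the full-length fusion, 11.48 and 11.64 with delFG1, and 11.57 and 11.69 with delFG2. The empty vector arrays were nearly equal and above the rest, and in each fusion group the array numbered 1 was the lower. With the full-length fusion the difference was -0.27 (95% interval -0.53 to -0.01), -0.44 for array 1 and -0.11 for array 2. It did not pass without the block (adjusted p = 0.496) or with it (0.0519). In fits with the block and an array left out, the difference was -0.38 without empty vector 2 and -0.39 without full-length 2. It was -0.17 without empty vector 1 and -0.16 without full-length 1. With each array centred on its median, the adjusted p with the block was 0.0331 at a difference of -0.29. The delFG1 and delFG2 differences, -0.23 and -0.16, did not pass in either fit.

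Il3ra, the interleukin 3 alpha chain, differed little between groups. Its values were 8.27 and 8.26 with the empty vector, 8.23 and 8.21 with the full-length fusion, 8.17 and 8.15 with delFG1, and 8.43 and 8.20 with delFG2. Only the delFG2 arrays were apart, on both sides of the empty vector. The full-length difference was -0.04 (95% interval -0.30 to 0.22, adjusted p = 0.951), that of delFG1 -0.11 (-0.36 to 0.15, adjusted p = 0.832) and that of delFG2 0.05 (-0.21 to 0.31, adjusted p = 1).

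Epor, the erythropoietin receptor, read 6.67 and 6.66 with the empty vector, 6.56 and 6.36 with the full-length fusion, 6.33 and 6.59 with delFG1, and 6.63 and 6.50 with delFG2. Every fusion array was lower, the nearest by a few hundredths. Epor intensity was low, from 79.2 to 101.2, where the array medians were 80.7 to 83.2. Its differences of -0.21, -0.21 and -0.10 for the full-length fusion, delFG1 and delFG2 did not pass in either fit, with a lowest adjusted p of 0.417 (delFG1, with the block). The 5 measured erythroid markers other than Epor summed to intensities of only 613.5 to 773.2.

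Averaged over the 3 fusion groups, a contrast added after the 5 lower receptors had been seen, Csf1r differed from the empty vector by -0.48, Csf2rb2 by -0.35 and Csf2ra by -0.22. These 3 passed with the block (adjusted p = 0.0129, 0.0104 and 0.049), and 0 receptors passed without it. Of all probe sets 7.21% passed with the block (4.77% lower) and 0.0964% without it. Csf2rb2 passed with the block whichever array was left out, Csf1r failed without empty vector 2 (0.0672) or full-length 2 (0.0559), and Csf2ra failed in 6 of 8 such fits. Csf2rb (-0.15, adjusted p = 0.0624 with the block) and Epor (-0.17, 0.394) did not pass. Since these receptors were picked for being lower, the contrast is no independent evidence of their direction.

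**Figure D2:**
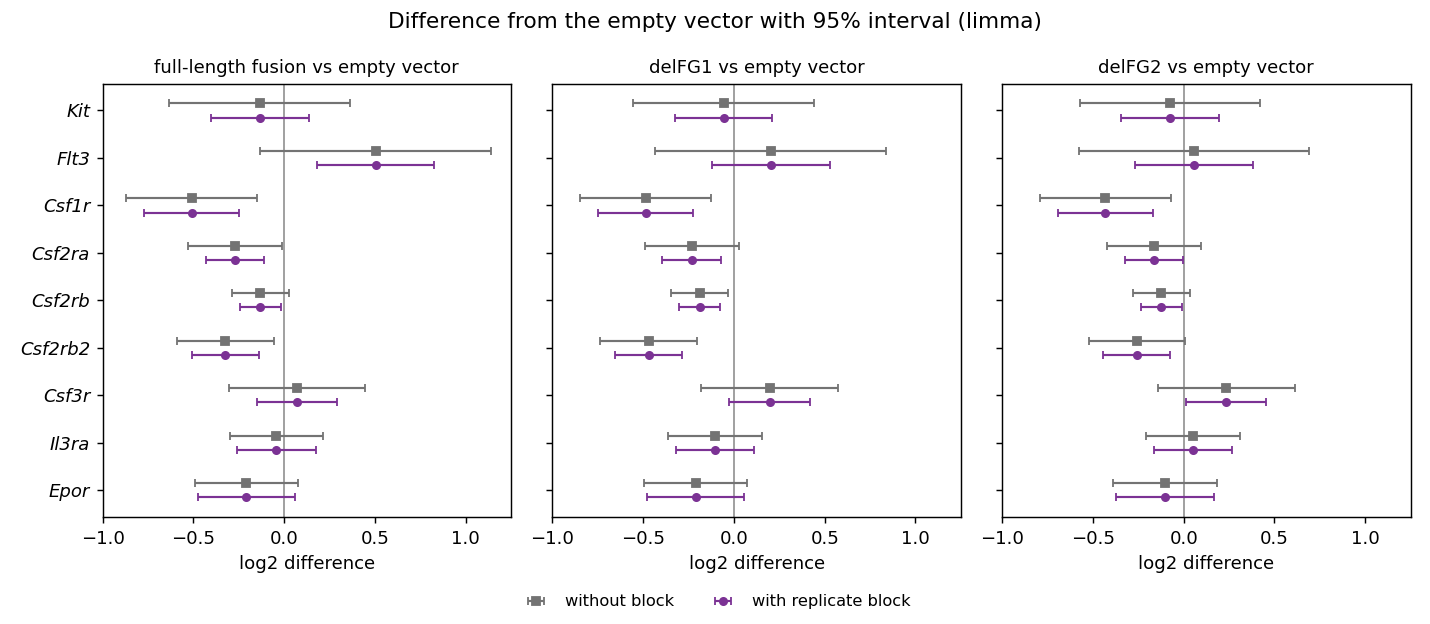
Log2 difference from the empty vector for each receptor gene with the full-length fusion, delFG1 and delFG2; squares are the fit without the replicate block, circles the fit with it, and bars are 95% intervals (limma, n = 2 arrays a group). The intervals of Csf1r with the full-length fusion run from -0.87 to -0.15 without the block, and those of Kit cross 0 in all 3 panels.

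Flt3, the FLT3 ligand receptor, read 5.69 and 5.54 with the empty vector, 6.57 and 5.67 with the full-length fusion, 6.11 and 5.53 with delFG1, and 5.82 and 5.53 with delFG2. A single array, full-length 1, stood well above the rest, and the groups overlapped. Levels were low: Flt3 intensity ran from 45.1 to 93.8, where the array medians were 80.7 to 83.2. The full-length difference was 0.50 (95% interval -0.13 to 1.14), made of 0.88 for array 1 and 0.13 for array 2, and it did not pass (adjusted p = 0.638, and 0.0721 with the block). In fits with the block and an array left out, the difference was 0.72 without empty vector 2 and 0.78 without full-length 2. It was 0.29 without empty vector 1 and 0.23 without full-length 1. Dendritic cell markers other than Flt3 showed the same array on top: their sum was 6031.6 in full-length array 1 and 3049.6 to 4173.5 in the other 7. Most of that sum came from Cd74 (1302 to 2455), H2-Ab1 (681 to 1643) and H2-Aa (523 to 1258). Siglech (39.0 to 56.5), Batf3 (73.0 to 84.2) and Xcr1 (33.7 to 46.7) were low in every array. The part of these markers in the Flt3 value was not tested. From the empty vector Flt3 differed by 0.20 with delFG1 and 0.06 with delFG2. Against the full-length fusion Flt3 differed by -0.30 with delFG1 and -0.45 with delFG2 (95% interval -1.08 to 0.19), and neither passed in either fit.

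Kit, the stem cell factor receptor, read 9.58 and 8.87 with the empty vector, 9.25 and 8.94 with the full-length fusion, 9.27 and 9.08 with delFG1, and 9.24 and 9.06 with delFG2. The empty vector arrays were both the highest and the lowest of the 8. Group means lay between 9.09 ± 0.22 and 9.23 ± 0.50 (SD, n = 2), and the full-length difference was -0.14 (95% interval -0.63 to 0.36, adjusted p = 0.903, and 0.661 with the block). It was -0.33 for array 1 and 0.06 for array 2. In the fit with the block the difference was -0.38 without empty vector 2, and its sign turned, to 0.11, without empty vector 1. Against the empty vector Kit differed by -0.06 with delFG1 and -0.08 with delFG2.

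Csf3r, the G-CSF receptor, read 9.51 and 9.74 with the empty vector, 9.48 and 9.92 with the full-length fusion, 9.67 and 9.98 with delFG1, and 9.86 and 9.86 with delFG2. The delFG2 arrays lay above both empty vector arrays, and the other groups overlapped with them. Its differences from the empty vector were 0.07, 0.20 and 0.23 for the full-length fusion, delFG1 and delFG2, with adjusted p of 0.94, 0.769 and 1, and 0.81, 0.343 and 0.422 with the block.

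Counted over the 9 receptors, 7 had a lower mean under the full-length fusion than under the empty vector, at a median of -0.14, where the median of all probe sets was 0.02 and 43.4% were lower. By limma 0 passed without the block, where 0.124% of all probe sets did, and 3 had an unadjusted p under 0.05 (9.54% of all). With the replicate block 2 passed, both lower, where 6.61% of all probe sets passed and 4.43% were lower, and 5 had an unadjusted p under 0.05 (18.6% of all). In 6 the arrays did not overlap and the fusion was lower (15.6% of all): Csf1r, Csf2ra, Csf2rb, Csf2rb2, Il3ra and Epor. Against the empty vector, 7 receptors were lower with delFG1 (42.2% of all probe sets), at a median of -0.19 beside 0.02 for all. Without the block 0 passed (0.129% of all), and with it 2 passed (6.12% of all, and 4.18% lower). Unadjusted p lay under 0.05 in 3 receptors without the block (9.61% of all) and in 4 with it (18.2%), and in 6 the arrays did not overlap (16.1% lower). With delFG2, 6 receptors were lower than with the empty vector (46.5% of all probe sets), at a median of -0.10 beside 0.01 for all. Without the block 0 passed (0.00459% of all), and with it 0 passed (0.505% of all). Unadjusted p lay under 0.05 in 1 receptor without the block (4.43% of all) and in 5 with it (10.8%). Arrays did not overlap in 5 lower receptors (13% of all) and in 1 higher, Csf3r (16.3% of all). These comparisons share the empty vector arrays.

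Between the mutants and the full-length fusion 0 receptors passed, and the largest differences were those of Flt3. With delFG1 in place of the full-length fusion, 0 of 9 passed by limma without the block (0.00918% of all probe sets) or with it (0.078%), and 0 had an unadjusted p under 0.05 in either fit (2.07% and 4.07% of all). In 1, Il3ra, the arrays did not overlap (12.4% of all, lower). The differences with delFG1 were largest for Flt3 (-0.30), Csf2rb2 (-0.15), Csf3r (0.13) and Kit (0.08). Those of Csf2rb (-0.06), Il3ra (-0.06), Csf2ra (0.04), Csf1r (0.02) and Epor (-0.0034) were smaller. With delFG2, 0 of 9 passed without the block (0.0275%) or with it (0.468%); 0 had an unadjusted p under 0.05 without the block (2.76% of all) and 1, Flt3, with it (8.39%). Here 8 of 9 receptors were higher than with the full-length fusion, at a median of 0.08. The median of all probe sets was -0.01, and 52.3% of them were lower. The 8 were Csf3r (0.16), Csf2ra (0.11), Epor (0.11), Il3ra (0.09), Csf1r (0.08), Csf2rb2 (0.07), Kit (0.06) and Csf2rb (0.0077). Flt3 was lower by the largest difference of the 9, -0.45, with a 95% interval of -0.77 to -0.12 and an adjusted p of 0.366 with the block. The 95% interval for Csf1r ran from -0.34 to 0.38 with delFG1 and from -0.28 to 0.44 with delFG2. For Csf2rb2 it ran from -0.41 to 0.12 and from -0.20 to 0.33. Between the mutants themselves 0 passed without the block (0% of all) or with it (0.537%); 0 had an unadjusted p under 0.05 without the block (3.13% of all) and 1, Csf2rb2, with it (8.07%). In 1, Il3ra, the arrays did not overlap (11.7% of all, higher). Csf2rb2 (0.21) and Il3ra (0.16) were higher with delFG2 than with delFG1 and Flt3 (-0.15) lower, and the differences of Epor (0.11), Csf2ra (0.07), Csf2rb (0.07), Csf1r (0.06), Csf3r (0.04) and Kit (-0.02) were smaller.

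Ranked by level, the empty vector group was highest for Kit, Csf1r, Csf2ra, Csf2rb, Csf2rb2 and Epor, the full-length group for Flt3, and delFG2 for Csf3r and Il3ra. Of the 27 pairs of neighbouring groups in these orders, 0 passed by limma in either fit, with a lowest adjusted p of 0.94 without the block and 0.159 with it. Arrays of neighbouring groups did not overlap at the step from the empty vector down to delFG2 for Csf1r, Csf2ra, Csf2rb, Csf2rb2 and Epor (13% of all probe sets were lower with delFG2 in this way). For Il3ra they did not overlap from the empty vector down to the full-length fusion (15.6%) and from there down to delFG1 (12.4%).

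Flt3 and Kit differed between the arrays numbered 1 and 2, in the same direction in every group. Flt3 was lower in array 2 than in array 1 by 0.16 to 0.90 within each of the 4 groups, and Kit by 0.18 to 0.71. Averaged over groups the difference was -0.48 for Flt3 (95% interval -0.71 to -0.25, adjusted p = 0.0136) and -0.35 for Kit (-0.54 to -0.16, adjusted p = 0.0263), and 2 of 9 receptors passed, both lower, where 11.2% of all probe sets passed and 4.75% were lower. Csf3r was higher in the arrays numbered 2 by 0.24 (adjusted p = 0.0503), with no gap between the delFG2 arrays. Both calls were lost without either full-length array, with adjusted p of 0.0626 and 0.0658 for Flt3 and 0.104 for Kit, and that of Kit also without either delFG2 array. Flt3 (0.40) and Kit (0.29) also had the largest SDs within groups of the 9 receptors, above 98.5% and 96.4% of all probe sets. The labels do not say what the numbers mean. Of the 16 neutrophil markers 10 were higher and 1 lower in the arrays numbered 2, of 9 mast cell and basophil markers other than Kit 5 were higher and 0 lower, and of 7 dendritic cell markers other than Flt3 1 was lower. Their part in these differences was not tested.

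**Figure D3:**
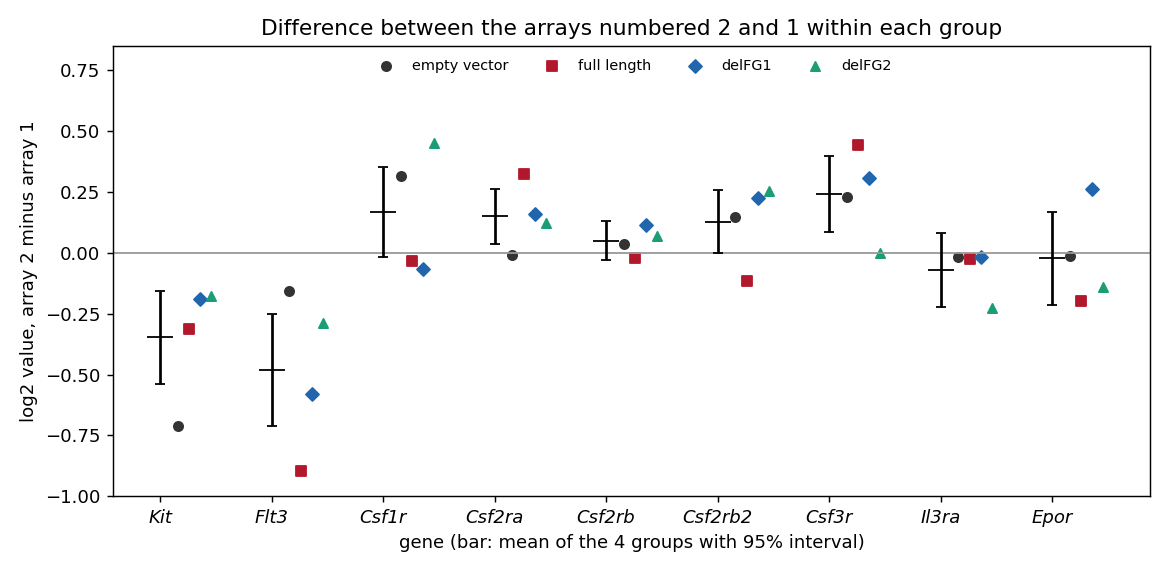
Log2 value of the array numbered 2 minus that numbered 1 for each receptor gene; the black bar is the mean over the 4 groups with its 95% interval (limma with the replicate block), and coloured points are the 4 groups. All 4 points of Flt3 and of Kit lie below 0, at means of -0.48 and -0.35.

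The wider growth factor pathways were described by lists of ligands, other receptors, signalling proteins, feedback genes, transcription factors and surface proteins. Of 9 ligand genes 0 were called by limma in either fit for the full-length fusion. Of all probe sets, 0.124% passed without the block and 6.61% with it. Without the block 1 ligand had an unadjusted p under 0.05, beside 9.54% of all probe sets. The smallest p was that of Csf1, which encodes M-CSF (-0.42, adjusted p = 0.488, and 0.107 with the block). Kitl, Csf2, Il3, Il5 and Epo read low, with empty vector means of 4.79 to 4.97, so a missing call says little about them. Il34 and Csf3 were also low, at 5.62 and 6.00, beside 8.25 for Flt3l and 8.64 for Csf1. Of 13 other cytokine receptors 0 passed without the block (4 had an unadjusted p under 0.05, where 9.54% of all probe sets did) and 3 fell with it, where 4.43% of all probe sets fell. These were Il7r, the interleukin 7 receptor (-1.01, adjusted p = 0.000858 with the block), Il6ra, the interleukin 6 receptor (-0.66, 0.0102), and Il6st, its signalling chain gp130 (-0.34, 0.041). The median of the 13 was -0.05, beside 0.02 for all probe sets.

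Of 23 signal transducers 0 passed without the block (5 had an unadjusted p under 0.05, beside 9.54% of all probe sets), and 2 fell with it, beside 4.43% of all: Gab2, a docking protein (-0.37, adjusted p = 0.014), and Stat6, the interleukin 4 signal transducer (-0.28, 0.0202). Their median was -0.14. Of 20 feedback and response genes 0 passed without the block (3 had an unadjusted p under 0.05, beside 9.54% of all probe sets); with it 4 passed, beside 6.61% of all: Myc, a growth regulator, rose (0.36, adjusted p = 0.0209), and Dusp6, an ERK phosphatase (-0.33, 0.0215), and the survival genes Bcl2l1 (-0.42, 0.0229) and Mcl1 (-0.30, 0.0466) fell. The feedback median was 0.05.

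Of 20 transcription factors that act on receptor genes, 2 rose without the block, where 0.124% of all probe sets passed: Hoxa9 by 1.97 (adjusted p = 0.00976) and Pbx3, a HOX partner, by 1.74 (0.00276). With the block 7 were higher and 3 lower, where 6.61% of all probe sets passed and 4.43% were lower, among them the higher Mef2c (1.08, adjusted p = 0.000215) and Meis1, a HOX partner (0.80, 0.00109). The Hoxa9 probe set may read the introduced fusion, which is not known. Of 10 surface proteins 0 passed without the block (5 had an unadjusted p under 0.05, beside 9.54% of all probe sets). With it 3 passed, beside 6.61% of all: Cd34, a progenitor marker, rose (0.86, adjusted p = 0.000189), and Itgam, the myeloid integrin CD11b (-0.45, 0.000746), and the adhesion receptor Cd44 (-0.57, 0.00142) fell.

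With delFG1 instead of the full-length fusion, calls in these lists were limited to transcription factors. Of all probe sets, 0.00918% passed without the block and 0.078% with it. Pbx3 fell in both fits (-1.66, adjusted p = 0.0104), and with the block Hoxa9 (-1.25, 0.00532), Meis1 (-0.82, 0.0143) and Mef2c (-0.79, 0.0216) fell as well. In the other lists the smallest p belonged to Il3 (-0.08), Il10ra (-0.30), Stat3 (0.17), Spry1 (0.35) and Cd244a (-0.41), each with an adjusted p of 1. With delFG2 Pbx3 (-1.73, adjusted p = 0.0074) fell in both fits, and with the block Hoxa9 (-1.60, 0.000332), Mef2c (-0.91, 0.00435), Meis1 (-0.72, 0.012) and Cd34 (-0.55, 0.0139) fell and Dusp6 (0.46, 0.0255) and Itgam (0.32, 0.033) rose. Ligands, other receptors and transducers had 0 calls with delFG2 in either fit. Of all probe sets, 0.0275% passed without the block and 0.468% with it. Unadjusted p lay under 0.05 in 0 genes of these lists without the block (2.76% of all). With the block it did so in 1 ligand, 2 other receptors and 0 transducers (8.39% of all). The smallest p in these lists belonged to Csf2 (-0.20), Il5ra (0.20) and Pik3r1 (-0.17). Csf2 and Il5ra read low, with full-length means of 5.07 and 4.82.

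**Figure D4:**
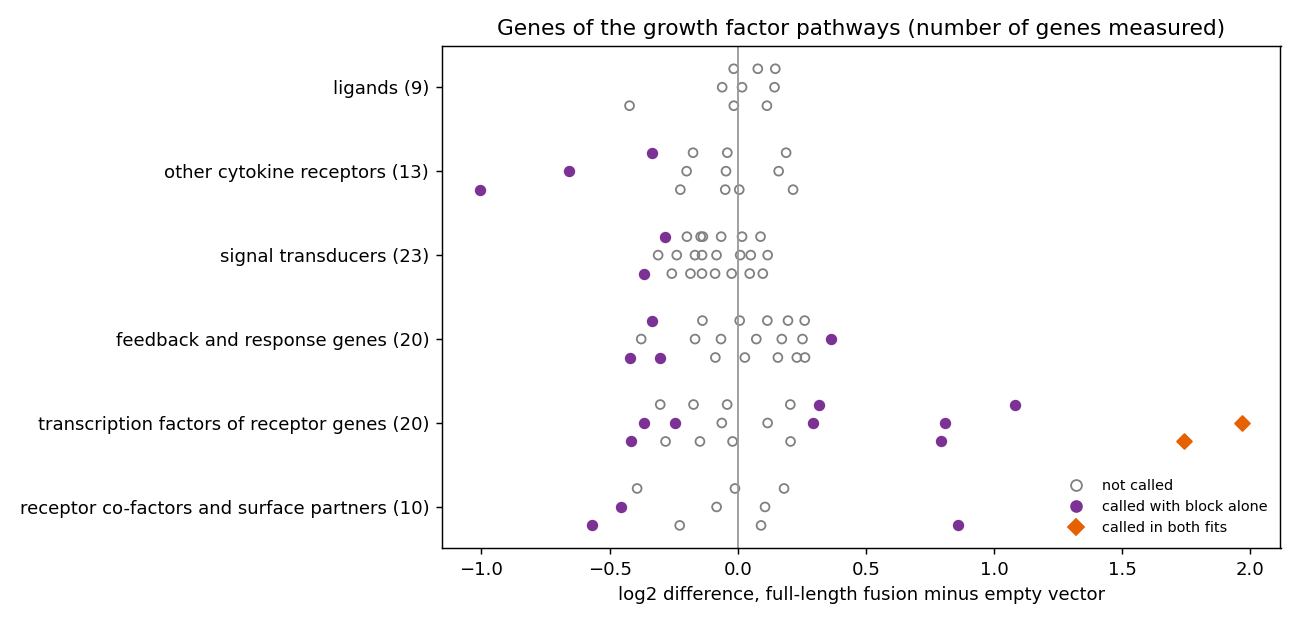
Log2 difference of the full-length fusion minus the empty vector for every measured gene of the 6 pathway lists; open circles did not pass, filled circles passed with the replicate block alone, and diamonds passed in both fits. The diamonds are Hoxa9 (1.97) and Pbx3 (1.74), and the lowest filled circle is Il7r at -1.01.

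Likeness over the 8 arrays was described for the receptors whose group means spanned at least 0.5, Flt3 and Csf1r, among 874 candidate genes. Flt3 was followed most closely by Ccl22, a dendritic cell chemokine (Pearson r = 0.975), Tnfrsf9, the costimulatory receptor 4-1BB (0.949), and H2-Ab1, an MHC class II chain (0.946). Csf1r was followed by Ly9, a SLAM family receptor (0.976), Klf4, a transcription factor of monocytes (0.962), and Cfb, complement factor B (0.96). The arrays share groups and numbers, and the r values are the highest of many, among genes kept for their group differences. For Flt3, full-length array 1 stood well above the rest, and the part of that array in its r values was not tested.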

How the data were processed

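Per the labels' protocols, total RNA was column-purified and whole-transcript labelled for Affymetrix arrays. The authors deposited linear intensity values for 28853 probe sets; the labels used here do not state their background correction, summarisation and normalisation, or the array model. From it log2(intensity + 1) was computed, without further normalisation. Genes were named from the platform annotation: 21789 probe sets with 1 symbol were tested, 1621 with several and 5443 with none were not. All 9 receptors matched RefSeq (GRCm38.p6), and the promoter windows of 7 were read. Windows on chromosome 18, where Csf1r lies, were left out, and none was available for Csf2rb.

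limma 3.58.1 in R 4.3.3 (lmFit, eBayes with trend) fitted 4 group means to all 8 arrays (4 residual and 4.62 prior degrees of freedom; 3 and 7.78 with the replicate block), two-sided, with p-values of each of 6 comparisons adjusted (Benjamini-Hochberg) over every probe set tested. The limma fits were tested on simulated data with independent noise in each array and differences larger than those of the receptors. Same-numbered arrays deviated together in all 6 pairs of groups (r from 0.401 to 0.64), so the numbers in the labels were taken as pairing. Alternatives were the block, centring, quantile normalization, a pseudocount of 16, a filter on dim probe sets (lowest 25%), no trend, all probe sets, and each array left out. The number of arrays limits the precision.

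Every receptor is named in every comparison. From each list and each of the 3 main comparisons the genes passing without the block, up to 4 passing with it, or else the smallest p, are named. Members and lists were chosen with earlier results of these data known.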

Additional observations from a re-analysis of the deposited data

How the results depend on the processing

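Median centring, quantile normalization, a pseudocount of 16, the dim filter, no trend and all probe sets left the count of receptors passing at 0 in each of the 6 comparisons between groups. The replicate block, which pairs arrays by number, raised it to 2 for the full-length fusion and to 2 for delFG1 against the empty vector, and with centring as well to 3 and 2; it changed no other receptor call between groups. Over all probe sets the block raised the calls from 27 to 1440 (full-length fusion) and 28 to 1333 (delFG1) against the empty vector, from 1 to 110 (delFG2), from 2 to 17 and 6 to 102 (delFG1 and delFG2 against the full-length fusion) and from 0 to 117 (between mutants); with centring too these were 1592, 1435, 173, 25, 127 and 115. Without the trend 3 (delFG2 against the full-length fusion), 5 (delFG1 against the empty vector) and 0 (delFG2 against the empty vector) passed, and 18 for delFG1 with all probe sets tested. Leaving out 1 array, with or without the block, gave 0 to 3 receptors for the full-length fusion and for delFG1, 0 to 1 for delFG2 (Csf2ra, without empty vector 2) against the empty vector, and 0 elsewhere. For the average of the fusions the block gave 3, and 2 to 3 with an array left out. Between array numbers 1 receptor passed without the trend and 0 to 4 with an array left out, 0 without either full-length array and 4 without either empty vector array. Epor between delFG1 and the full-length fusion turned from -0.0034 to 0.013 with centring (0.013 with the block too) and to 0.0077 with quantile normalization. Further signs turned when an array was left out, in differences that had not passed with all 8 arrays, over these ranges. For delFG1 against full-length fusion, Csf1r -0.13 to 0.18, Csf2ra -0.12 to 0.20, Csf2rb2 -0.31 to 0.016, Csf3r -0.095 to 0.35, Epor -0.19 to 0.19, Flt3 -0.75 to 0.15, Kit -0.079 to 0.24. For delFG2 against delFG1, Csf1r -0.17 to 0.28, Csf2ra -0.011 to 0.15, Csf3r -0.13 to 0.20, Epor -0.081 to 0.30, Flt3 -0.44 to 0.14, Kit -0.13 to 0.096. For delFG2 against full-length fusion, Csf1r -0.15 to 0.30, Csf2ra -0.053 to 0.27, Csf2rb -0.038 to 0.053, Csf2rb2 -0.097 to 0.23, Csf3r -0.057 to 0.38, Epor -0.013 to 0.22, Flt3 -0.90 to 0.0029, Il3ra -0.019 to 0.21, Kit -0.097 to 0.22. Full-length fusion against empty vector, Csf3r -0.15 to 0.29, Kit -0.49 to 0.22. For delFG1 against empty vector, Flt3 -0.087 to 0.49, Kit -0.41 to 0.30. For delFG2 against empty vector, Flt3 -0.16 to 0.27, Il3ra -0.061 to 0.16, Kit -0.43 to 0.28. Average of the 3 fusion groups against empty vector, Il3ra -0.069 to 0.0057, Kit -0.44 to 0.27. The cause was not tested. With 2 arrays a group, a group of 1 is assumed to vary like the others.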

Other observations

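Pathway genes with the mutants against the empty vector, chosen after their values were seen, passed with the replicate block alone. Il6ra, the interleukin 6 receptor, fell with delFG1 (-0.54, adjusted p = 0.029 with the block) and delFG2 (-0.73, 0.0349), as did Cd44 (-0.63, 0.000707, and -0.42, 0.0439). Gfi1, a repressor needed for granulocyte development, rose with delFG1 (0.91, 0.00137) and delFG2 (0.80, 0.0307). With delFG1 Il7r (-1.05, 0.000666), Il6st (-0.45, 0.00965) and Il10ra (-0.50, 0.0173) fell. Ifngr1, the interferon gamma receptor (0.31, 0.0227), and Spry1, an inhibitor of receptor tyrosine kinase signalling (0.61, 0.00668), rose with delFG1. Among the signal transducers Gab2 (-0.41, 0.00767) and Pik3cg (-0.29, 0.0267) fell with delFG1. Not every pathway gene that passed is named here. With the full-length fusion Spi1, which encodes PU.1, fell by 0.24 (adjusted p = 0.671, and 0.0258 with the block).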
